A study of Mus musculus with 24 samples.

Results

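The circadian clock genes described here are Arntl, Clock, Per1, Per2, Per3, Cry1, Cry2, Nr1d1, Nr1d2 and Dbp, chosen by name as the transcription factors, repressors and first output gene of the molecular clock. All 10 were found, through 23 of the 45101 probe sets of the array. They are 10 of the 18193 genes that a probe set with a single symbol measured. The samples were the liver and the hindleg skeletal muscle of newborn C57BL/6 mice at day 0, whose mothers were kept on a fixed diet between day 1 of pregnancy and birth. In the LPtau group the mothers received a low protein diet with 8% casein and 1% taurine, a sulphur amino acid, in their drinking water. The LP group received the diet with 8% casein alone, the NPtau group a normal diet with 20% casein and 1% taurine in the water, and the NP group the diet with 20% casein alone. Each diet had 3 arrays in each tissue, 24 in all. The replicates are called biological in the labels, but neither the dam and litter of a pup nor the hour at which pups were killed is given in the sources used here, so p-values measure the spread between these arrays.

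In mouse cells the proteins ARNTL, also called BMAL1, and CLOCK bind as a pair to E-boxes and switch on the Per, Cry, Nr1d and Dbp genes, and the PER and CRY proteins then inhibit that pair. NR1D1 and NR1D2, the REV-ERB receptors, repress Arntl through elements that the ROR receptors also bind. DBP and its relatives TEF and HLF activate, and NFIL3 represses, through the D-box. In adult mouse liver and muscle the RNAs of these genes rise and fall over the day, Arntl in the opposite phase to Nr1d1 and Dbp.

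The promoters of some genes named in the liver comparisons are shown first, since the D-box, the E-box and the REV-ERB and ROR element are the sites through which clock genes act on each other. Only windows that held such a motif are printed, so they do not show how often these genes carry such motifs. Dbp and Nr1d1, also named in the liver comparisons, had windows without these motifs and are not printed. The windows of 300 bases are RefSeq's, build GRCm38.p6, and hold 250 bases before and 50 after a start site. Each is printed 5′ to 3′ on the gene's strand, with the matched motif in capitals. The motifs searched on both strands were CACGTG for the E-box, TTANGTAA for the D-box and AGGTCA for the REV-ERB and ROR element. Per3 (chr4:151044616-151044915, minus strand) held the D-box letters at 205 and 158 bases before its start. Cry1 (chr10:85185005-85185304, minus strand) held the E-box letters at 60 bases before the start. Tef (chr15:81802423-81802722, plus strand), a D-box factor described below, held the E-box letters at 127 bases before the start. Arntl (chr7:113207261-113207560, plus strand) held the REV-ERB and ROR letters, with their first base 31 bases after the start. It is the second of the Arntl windows in the table, and the first held none of the 3 motifs.
Per3: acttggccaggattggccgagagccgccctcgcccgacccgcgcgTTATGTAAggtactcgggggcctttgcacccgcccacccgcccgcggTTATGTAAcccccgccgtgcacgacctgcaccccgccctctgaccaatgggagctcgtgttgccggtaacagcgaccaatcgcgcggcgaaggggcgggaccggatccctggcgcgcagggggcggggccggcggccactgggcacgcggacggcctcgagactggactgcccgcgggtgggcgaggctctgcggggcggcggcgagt
Cry1: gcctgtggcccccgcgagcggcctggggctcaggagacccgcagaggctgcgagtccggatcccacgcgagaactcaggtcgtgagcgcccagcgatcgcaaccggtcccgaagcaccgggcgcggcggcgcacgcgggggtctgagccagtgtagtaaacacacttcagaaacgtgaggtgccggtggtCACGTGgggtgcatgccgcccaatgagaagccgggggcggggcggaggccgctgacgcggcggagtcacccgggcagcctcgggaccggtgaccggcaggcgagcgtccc
Tef: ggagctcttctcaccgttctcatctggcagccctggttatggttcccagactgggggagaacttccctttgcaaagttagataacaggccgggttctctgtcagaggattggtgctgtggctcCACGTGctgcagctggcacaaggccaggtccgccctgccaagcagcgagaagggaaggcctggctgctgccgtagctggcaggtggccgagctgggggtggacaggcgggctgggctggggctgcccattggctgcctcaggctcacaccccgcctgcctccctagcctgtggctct
Arntl: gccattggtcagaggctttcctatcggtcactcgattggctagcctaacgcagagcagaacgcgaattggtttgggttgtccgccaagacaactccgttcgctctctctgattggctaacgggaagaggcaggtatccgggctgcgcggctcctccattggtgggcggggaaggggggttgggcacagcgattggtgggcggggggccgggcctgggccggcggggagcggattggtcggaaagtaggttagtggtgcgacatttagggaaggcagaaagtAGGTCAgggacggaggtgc

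Promoter windows were found for 9 of the 10 genes, and Per2 is named only. Of 32851 promoter windows of this length in the table, 2.323% held TTANGTAA, 7.15% held CACGTG and 16.26% held AGGTCA. At least 2 D-box matches, as in Per3, were found in 27 windows, or 0.0822%. Among the other members, Per1 held an E-box and an AGGTCA match in its first window, Nr1d2 an AGGTCA match and Clock an AGGTCA match in 1 of its windows. The windows of Dbp, Nr1d1 and Cry2 held none of the 3 motifs. These are matches of letters in a window and were not tested as sites.

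The values are log2 expression values made by the authors with robust multi-array averaging (RMA), and the tissues were normalized separately. The median level of a liver array was 5.35 to 5.39 and that of a muscle array 4.95 to 5.04. Each tissue carried its own markers. The mean of 10 hepatocyte markers was 14.13 to 14.23 over the 12 liver arrays and 4.77 to 6.98 over the muscle arrays, and that of 12 skeletal muscle markers was 5.03 to 5.78 over the liver arrays and 13.06 to 13.81 over the muscle arrays. Arrays were also called female or male from Xist over Eif2s3y, and in each tissue 1 of 3 LPtau, 2 of 3 LP, 2 of 3 NPtau and 1 of 3 NP arrays were called female.

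In newborn liver low protein alone was set against normal protein to ask whether maternal protein restriction moved the clock genes. Per3, a period gene, was the only member that passed the test, and it rose 1.60-fold in LP liver. None of the other members passed, though Dbp and Nr1d1 lay above NP in all 3 LP arrays and Arntl lay below NP in all 3. A gene passed at a Benjamini-Hochberg adjusted p under 0.05 over the 18193 genes in limma, with 2.34% of all genes passing here against 1 of 10 clock genes. The groups did not overlap for 4 of the 10 clock genes, against 29.2% of all genes. At an unadjusted p under 0.05 limma counted 2 of 10, Per3 and Dbp, with 22.7% of all genes. The median absolute log2 difference was 0.36 over the clock genes and 0.19 over all genes.

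**Figure D1:**
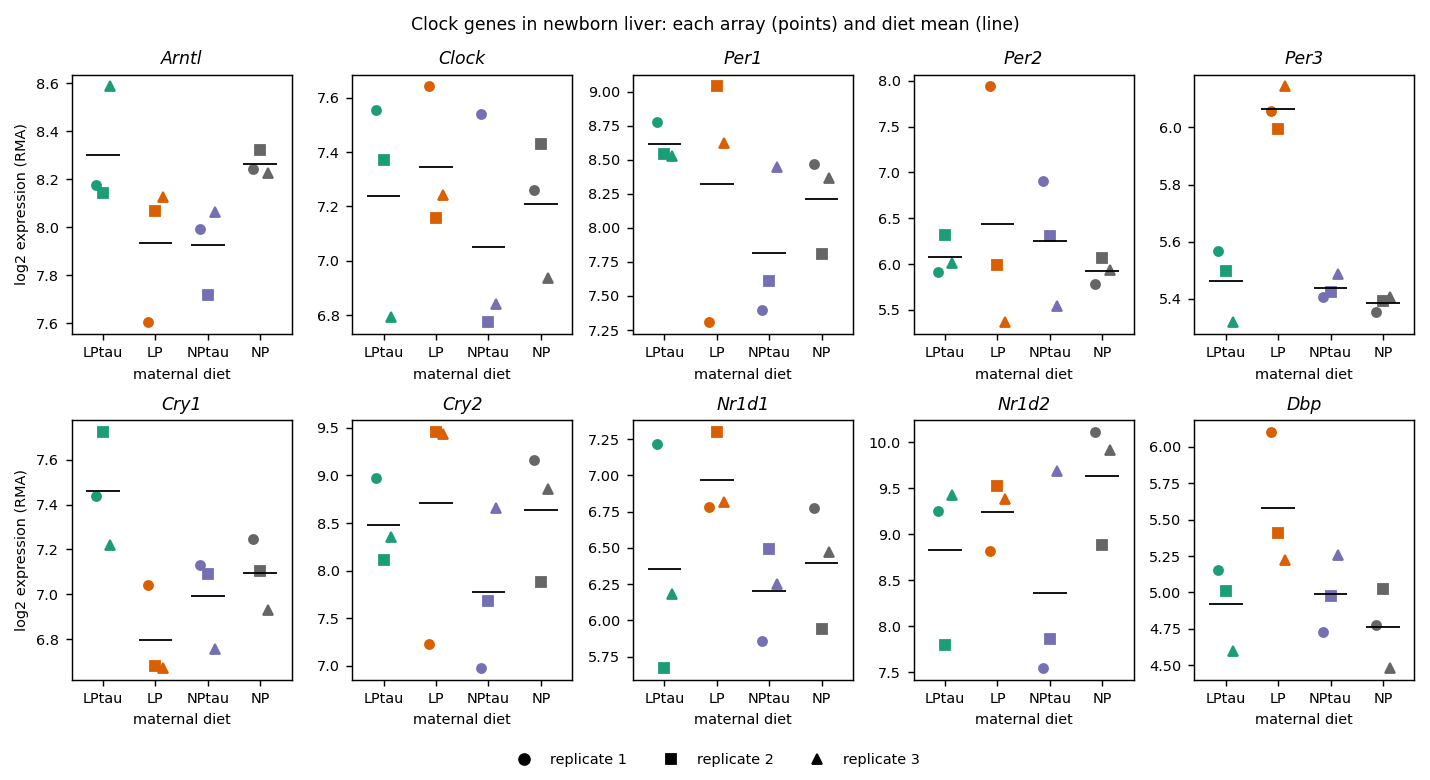
Log2 RMA level (vertical axes) of the 10 clock genes in each liver array, by maternal diet (horizontal axes, LPtau, LP, NPtau and NP), with points for arrays and lines for group means. Per3 was between 5.99 and 6.14 in the 3 LP arrays and between 5.32 and 5.57 in the other 9, while Per2 in LP spread between 5.37 and 7.94.

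Per3 had log2 levels of 6.06, 5.99 and 6.14 in LP liver, against 5.35, 5.39 and 5.40 in NP liver. It had 5.57, 5.50 and 5.32 in LPtau liver and 5.40, 5.42 and 5.49 in NPtau liver. All 3 LP arrays stood above the other 9. Per3 was 6.07 ± 0.08 in LP liver and 5.38 ± 0.03 in NP liver (SD, n = 3 each), a log2 difference of 0.68 (SE 0.09, 95% interval 0.48 to 0.89, limma adjusted p = 0.0108), which ranked 23rd by p among all genes. PER3 is a period protein that is known to be less needed for rhythms than PER1 and PER2. Without NP replicate 1 the adjusted p of Per3 was 0.0535 and without LP replicate 3 it was 0.0501, and in these smaller sets 21 and 29 genes passed in all, against 425.

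The probe sets of Per3 were read separately. In liver 6 of 6 had a positive difference between LP and NP, and in 6 of 6 the groups did not overlap. Probe set 1458176_at read 5.99, 6.52 and 6.16 in LP liver, against 5.05, 4.43 and 4.68 in NP liver, a difference of 1.5 (SE 0.22, limma adjusted p = 0.0193 over 45037 probe sets). Probe set 1442243_at read 5.84, 6.16 and 5.83 in LP liver, against 5.33, 5.33 and 5.37 in NP liver, a difference of 0.60 (SE 0.11, limma adjusted p = 0.0363). For these probe sets too each LP array lay above each NP array. Probe set 1460662_at read 4.62, 4.60 and 4.77 in LP liver, against 4.42, 4.55 and 4.57 in NP liver, a difference of 0.15 (limma adjusted p = 0.397). Of the 23 member probe sets 4 passed when each was tested on its own, against 1.23% of all probe sets, and these were 3 of Per3 and 1457740_at of Arntl. The probe set used for Per3, 1421087_at, had the highest mean of the 6 and gave a smaller difference than 1458176_at.

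**Figure D2:**
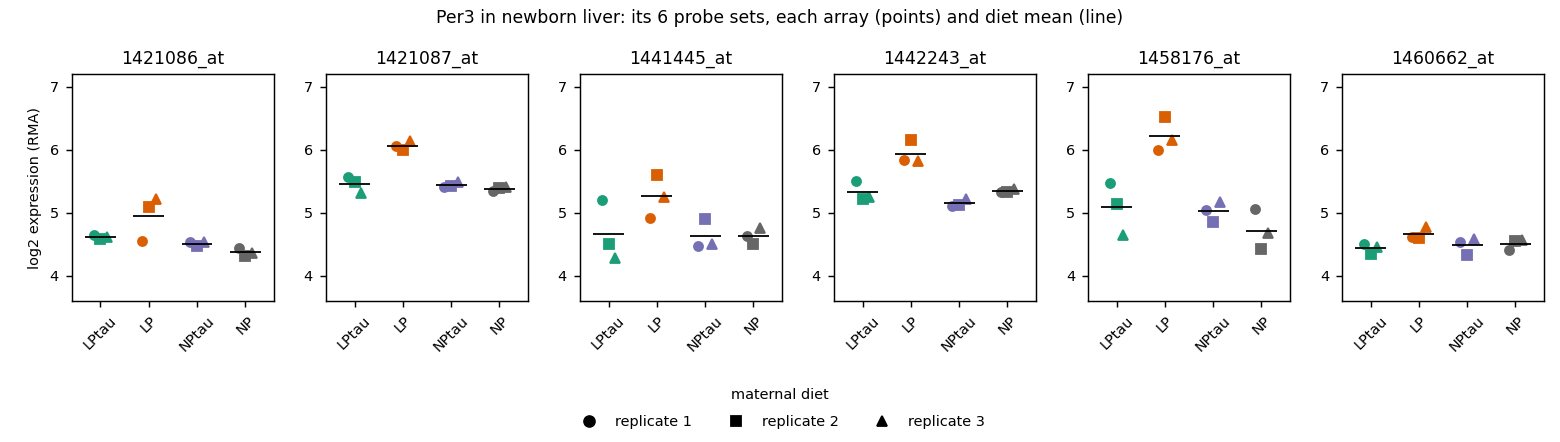
Log2 RMA level (vertical axes) of each of the 6 Per3 probe sets in the liver arrays, by maternal diet (horizontal axes), with points for arrays and lines for group means. The 3 LP arrays lay above the 3 NP arrays in 6 of 6 probe sets, by 1.5 on average for 1458176_at and by 0.15 for 1460662_at.

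Arntl encodes the activator that pairs with CLOCK. It had log2 levels of 7.60, 8.07 and 8.12 in LP liver, against 8.24, 8.32 and 8.23 in NP liver. Each LP array was below each NP array, and LP replicate 1 was the lowest of the 12. The difference was -0.33 (SE 0.16, 95% interval -0.69 to 0.03, limma adjusted p = 0.259). Its second probe set, 1457740_at, read 5.86, 6.01 and 6.01 in LP liver, against 6.51, 6.41 and 6.28 in NP liver. That difference of -0.44 (SE 0.09) passed when every probe set was tested (limma adjusted p = 0.0483). Clock, its partner, was 7.64, 7.16 and 7.24 in LP liver, against 7.26, 7.43 and 6.94 in NP liver, and the groups overlapped (difference 0.14, SE 0.25, limma adjusted p = 0.769).

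Among the other period genes, Per1, which light, cAMP and glucocorticoids induce at once, was 7.31, 9.04 and 8.63 in LP liver, against 8.47, 7.81 and 8.36 in NP liver. The LP arrays held both the lowest and the highest Per1 level of the 12. Per2 was 7.94, 5.99 and 5.37 in LP liver, against 5.79, 6.06 and 5.94 in NP liver, and LP replicate 1 stood far above the rest. The differences were 0.11 for Per1 (SE 0.40, limma adjusted p = 0.888) and 0.50 for Per2 (SE 0.53, limma adjusted p = 0.593). The other Per2 probe sets lacked this spread. Probe set 1417603_at was 6.04, 5.68 and 5.58 in LP liver, against 5.03, 5.19 and 4.85 in NP liver, and probe set 1457350_at was 6.05, 6.11 and 5.90 in LP liver, against 5.70, 5.71 and 5.55 in NP liver. Both read higher in each LP array than in each NP array, with limma adjusted p of 0.0859 and 0.102.

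The cryptochromes repress CLOCK and ARNTL most directly. Cry1 was 7.04, 6.68 and 6.67 in LP liver, against 7.24, 7.10 and 6.93 in NP liver, and only LP replicate 1 reached into the range of NP (difference -0.30, SE 0.16, limma adjusted p = 0.302). Cry2 was 7.23, 9.45 and 9.44 in LP liver, against 9.16, 7.88 and 8.86 in NP liver. The LP arrays of Cry2 straddled the NP arrays (difference 0.08, SE 0.60, limma adjusted p = 0.955).

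The REV-ERB receptors form the second loop of the clock. Nr1d1 was 6.78, 7.30 and 6.82 in LP liver, against 6.77, 5.94 and 6.47 in NP liver. The groups did not overlap, though the nearest arrays lay close together, at 6.78 and 6.77 (difference 0.57, SE 0.35, limma adjusted p = 0.351). Nr1d2 was 8.82, 9.53 and 9.39 in LP liver, against 10.11, 8.89 and 9.92 in NP liver (difference -0.39, SE 0.58, limma adjusted p = 0.714). Its groups overlapped. With the sex call as a covariate the difference was 0.03 (SE 0.29), and the lower level of Nr1d2 in arrays called female is given below.

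Dbp is the output gene closest to the clock, and its mean level of 5.06 in liver was above that of 31.2% of genes. It was 6.10, 5.41 and 5.22 in LP liver, against 4.78, 5.02 and 4.48 in NP liver. Each LP array was above each NP array, 1.76-fold on average, and the difference of 0.82 (SE 0.24, 95% interval 0.28 to 1.35) was the nearest to the threshold among the members that did not pass (limma adjusted p = 0.0943). Its second probe set, 1438211_s_at, read 7.29, 4.89 and 4.78 in LP liver, against 4.75, 4.71 and 4.54 in NP liver, and LP replicate 1 alone stood well above the rest.

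Tef, the relative of Dbp that binds the same D-box, rose in LP liver. It was 9.79, 9.69 and 9.45 in LP liver, against 8.75, 8.08 and 8.65 in NP liver, with no overlap and the same sign in 3 of 3 probe sets (difference 1.15, SE 0.20, limma adjusted p = 0.0236). Of the 4 D-box factors, 4 had a positive difference and 1 passed, against 58.5% and 2.34% of all genes. Hlf had a difference of 0.50 and Nfil3, the D-box repressor, 0.15. The median difference of the 4 was 0.66, beside 0.05 over all genes. Tef no longer passed without any single array of NP, without LP replicate 2 or 3, or with the mean of its probe sets, where the adjusted p was 0.0525 to 0.10.

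Few genes of the lists around the clock passed. Of 22 measured clock regulators, which are partners, kinases and ligases of the clock proteins, 0 passed, against 2.34% of all genes, and 2 had an unadjusted p under 0.05, against 22.7% of all genes. Sirt1, a deacetylase that binds CLOCK, had the largest difference among them, -0.99 (SE 0.24, limma adjusted p = 0.0574). Of 25 genes known as rhythmic output in adult liver, 1 rose, which was Tef, and 1 fell, again beside 2.34% of all genes called. The gene that fell, Gys2, the liver glycogen synthase, was 9.70, 9.68 and 9.78 in LP liver, against 10.28, 10.32 and 10.12 in NP liver. Every LP array of Gys2 was below every NP array (difference -0.52, SE 0.12, limma adjusted p = 0.0469). Gys2 no longer passed in 10 of 15 alternatives, among them those without any single NP array and without LP replicate 2 or 3, where the adjusted p was 0.102 to 0.16. The median over these 25 genes was -0.14, beside 0.05 over all genes.

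Signals that reset the clock were read through their target genes. Of 14 glucocorticoid response genes 1 fell. Sgk1, a kinase induced by glucocorticoids, was 9.11, 10.03 and 10.21 in LP liver, against 11.35, 11.04 and 11.16 in NP liver (difference -1.40, SE 0.29, limma adjusted p = 0.0382). The level of Sgk1 was also below NP in NPtau liver (difference -0.93, SE 0.29, limma adjusted p = 0.995). In LPtau liver it was below NP too (difference -0.91, SE 0.29, limma adjusted p = 0.617). Of 14 cAMP response and immediate early genes 1 fell, but 7 had a positive difference, against 58.5% of all genes. The median of this list was 0.11, beside 0.05 over all genes. Crem, which encodes activators and repressors of the cAMP response, was 6.61, 5.19 and 5.68 in LP liver, against 8.51, 8.11 and 8.73 in NP liver (difference -2.62, SE 0.54, limma adjusted p = 0.0368). The LP arrays of both genes lay below all NP arrays, and for Crem 4 of 4 probe sets had that sign. Neither passed without any single array of NP or without LP replicate 2 or 3, where the adjusted p was 0.0679 to 0.14 for Sgk1 and 0.0619 to 0.145 for Crem. With the sex call as a covariate the adjusted p of Crem was 0.0534. Fos, of the same list as Crem, went the other way, with each LP array above each NP array (difference 1.61, SE 1.15, limma adjusted p = 0.420). Of 13 measured heat shock and temperature response genes 0 passed, and 5 had an unadjusted p under 0.05. Over all genes 2.34% passed and 22.7% had such a p. Per1, a member of the glucocorticoid list, did not share the lower level of Sgk1.

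Markers of other cell types moved with diet in the same livers. Over all genes 58.5% had a positive difference between LP and NP and 2.34% passed. Of 14 leukocyte markers 14 had a negative difference and 2 fell. These were Rag1, needed for lymphocyte receptor rearrangement, with a difference of -2.01 (SE 0.28, limma adjusted p = 0.0114), and the B cell gene Cd79b, with a difference of -1.55 (SE 0.33, limma adjusted p = 0.0401). Without NP replicate 1 or LP replicate 2 the adjusted p of Rag1 was 0.0535 and 0.0599, and without any single NP array or LP replicate 2 or 3 that of Cd79b was 0.091 to 0.127. Cd79b also lost its call with the sex call as a covariate (adjusted p = 0.0638) and with the replicate number as a block (adjusted p = 0.0609). Relative to the NP mean, the mean log2 level of the leukocyte list was between -0.45 and 0.08 in the 3 LPtau arrays, between -1.16 and -0.60 in LP, between -0.05 and 0.14 in NPtau and between -0.10 and 0.11 in NP. Of 12 fibroblast and vessel markers 3 fell, the endothelial genes Pecam1 (-0.80), Cdh5 (-1.11) and Esam (-1.07), with limma adjusted p of 0.0211, 0.0336 and 0.0227. The 2 probe sets of Cdh5 differed in sign. With arrays left out the adjusted p reached 0.0948 for Pecam1, 0.118 for Cdh5 and 0.10 for Esam, and each lost its call without NP replicate 1 or 3 or LP replicate 2 or 3, and Pecam1 and Cdh5 also without NP replicate 2. Cdh5 had an adjusted p of 0.0554 with the sex covariate and of 0.0682 with the mean of its probe sets. The mean of this list was between -0.04 and 0.61 in LPtau, between -0.83 and -0.49 in LP, between -0.13 and 0.38 in NPtau and between -0.04 and 0.03 in NP. None of the 10 hepatocyte markers passed. Relative to the NP mean, their mean was between -0.08 and -0.04 in LP and between -0.03 and 0.02 in NP. Their mean log2 level was 14.13 to 14.23 over the liver arrays, and whether a shift would show at such high levels was not tested. The part of these cell type markers in the values of Per3, Dbp and Arntl was not tested, and in whole tissue fewer cells of a type and less RNA per cell cannot be told apart.

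Taurine given with low protein was compared with low protein alone to ask whether the supplement moved the clock genes again. None of the 10 clock genes passed, against 0.066% of all genes. Without overlap between the groups were 4 of 10, against 13.8% of all genes, with Per3 and Dbp lower and Arntl and Cry1 higher in LPtau. At an unadjusted p under 0.05 limma counted the same 4 genes, with 8.48% of all genes. The median absolute difference was 0.40 over the clock genes and 0.13 over all genes. This comparison shares the LP arrays with that of LP against NP, so that a deviation of those arrays enters both with opposite sign.

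Per3 was the nearest to the threshold. The difference between LPtau and LP liver was -0.60 (SE 0.09, 95% interval -0.81 to -0.40, limma adjusted p = 0.0543, rank 14 among all genes). The highest LPtau array, at 5.57, was below the lowest LP array, at 5.99. In 6 of 6 probe sets the difference was negative, and in 4 of 6 the groups did not overlap. Without LP replicate 1 the adjusted p was 0.0287. Per3 in LPtau liver differed from NP liver by 0.08, with a 95% interval of -0.13 to 0.28.

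Cry1 was 7.44, 7.72 and 7.22 in LPtau liver, against 7.04, 6.68 and 6.67 in LP liver. No LP array reached the LPtau range, and of the other 9 arrays only NP replicate 1, at 7.24, did. The difference of 0.66 (SE 0.16, limma adjusted p = 0.232) was 1.58-fold. Dbp was 5.16, 5.01 and 4.60 in LPtau liver, against 6.10, 5.41 and 5.22 in LP liver (difference -0.65, SE 0.24, limma adjusted p = 0.488). Arntl was 8.18, 8.14 and 8.59 in LPtau liver, against 7.60, 8.07 and 8.12 in LP liver (difference 0.37, SE 0.16, limma adjusted p = 0.579). The Arntl groups were separated by the narrow gap between 8.14 and 8.12, and its second probe set had a difference of 0.02. Tef was 8.97, 8.71 and 8.35 in LPtau liver, against 9.79, 9.69 and 9.45 in LP liver, again without overlap (difference -0.97, SE 0.20, limma adjusted p = 0.166). In the same comparison 14 of 14 leukocyte markers and 11 of 12 fibroblast and vessel markers had a positive difference, with medians of 0.50 and 0.89, and 0 of either passed. Over all genes 48.4% had a positive difference and 0.066% passed.

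The remaining liver comparisons called no clock gene. Taurine with normal protein called 0 of 10, against 0% of all genes, and 1 of 10 had an unadjusted p under 0.05, with 2.75% of all genes. That gene was Nr1d2, which was 7.55, 7.86 and 9.69 in NPtau liver, against 10.11, 8.89 and 9.92 in NP liver. Replicate 3 of NPtau, called male, lay within the NP range, and replicates 1 and 2, called female, lay below it (difference -1.27, SE 0.58, limma adjusted p = 0.995). With the sex call as a covariate the difference was -0.85 (SE 0.29). LPtau against NP called 0 of 10, against 0% of all genes, and LPtau against NPtau also called 0 of 10, against 0% of all genes. At an unadjusted p under 0.05 limma counted 1 and 2 clock genes there, with 6.77% and 4.74% of all genes. Cry1, with differences of 0.37 and 0.47, was counted in both, and Arntl, with 0.38, in LPtau against NPtau. The interaction, which asks whether taurine acts differently on low and normal protein, called 0 of 10, against 0% of all genes. Its values were -0.66 for Per3 (SE 0.13, limma adjusted p = 0.301), 0.76 for Cry1 (SE 0.23), 0.71 for Arntl (SE 0.23) and -0.88 for Dbp (SE 0.34), and these 4 had an unadjusted p under 0.05, with 8.46% of all genes.

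In hindleg muscle low protein called none of the clock genes. The test passed 0 of 10, against 0.126% of all genes, and 0 of 10 had an unadjusted p under 0.05, with 10.8% of all genes. The groups did not overlap for 2 of 10, against 19.6% of all genes, and these were Arntl and Nr1d2, both lower in LP, where 11.6% of all genes were lower without overlap. The median absolute difference was 0.31 over the clock genes and 0.14 over all genes.

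**Figure D3:**
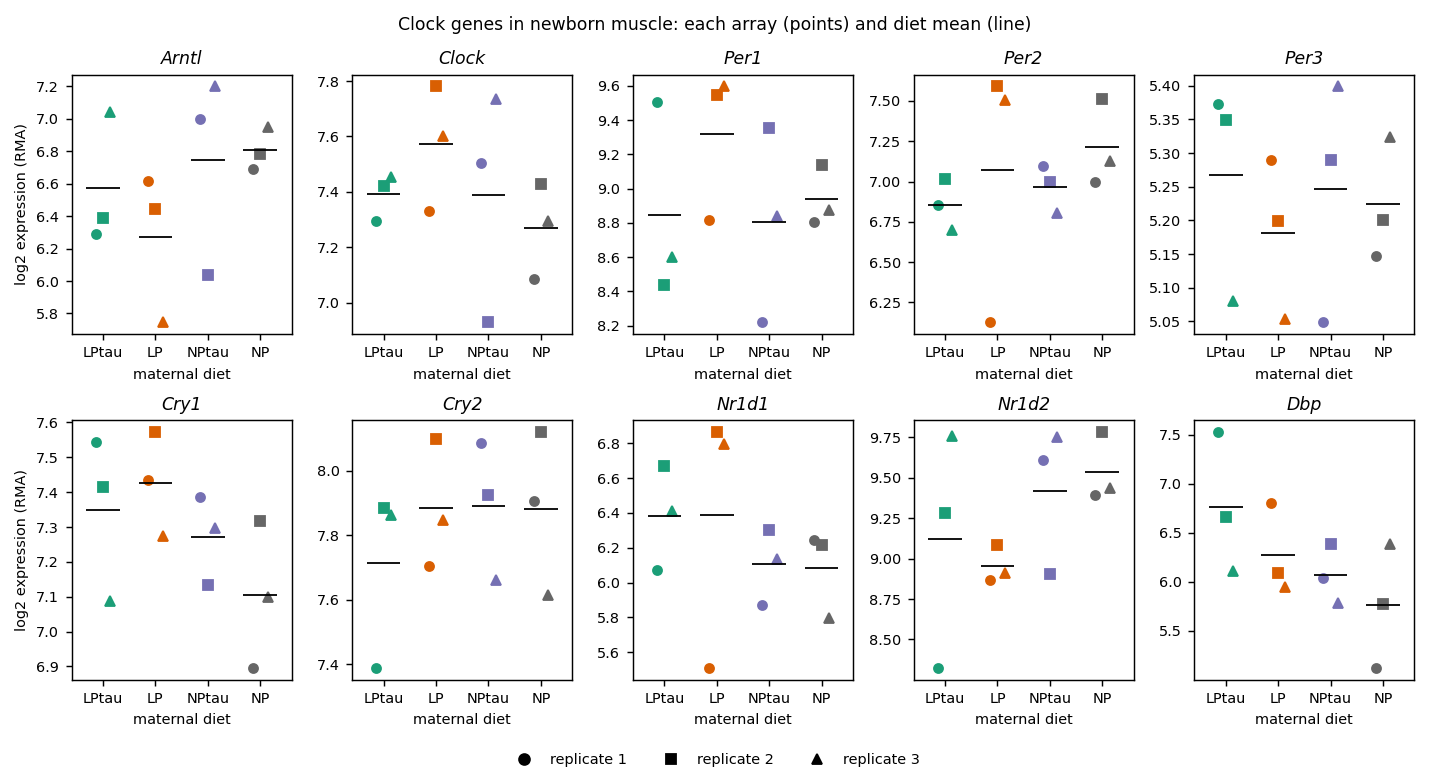
Log2 RMA level (vertical axes) of the 10 clock genes in each muscle array, by maternal diet (horizontal axes, LPtau, LP, NPtau and NP), with points for arrays and lines for group means. Per3 stayed between 5.05 and 5.40 in all 12 arrays, and Dbp spread between 5.12 and 7.53.

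Arntl was 6.62, 6.44 and 5.75 in LP muscle, against 6.69, 6.78 and 6.95 in NP muscle. LP replicate 3 was the lowest of the 12, and the other LP arrays lay just under the NP range (difference -0.54, SE 0.32, limma adjusted p = 0.627). The 2 probe sets of Arntl differed in sign in muscle, so the lower level rests on the probe set used. Clock was 7.33, 7.78 and 7.60 in LP muscle, against 7.09, 7.43 and 7.30 in NP muscle (difference 0.30, SE 0.20, limma adjusted p = 0.671).

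Per3 was 5.29, 5.20 and 5.05 in LP muscle, against 5.15, 5.20 and 5.32 in NP muscle. The groups lay over each other (difference -0.04, SE 0.13, 95% interval -0.33 to 0.24, limma adjusted p = 0.961). The muscle probe sets of Per3 did not share a direction: 3 of 6 had the sign of the one used, and in 2 of 6 the LP arrays were all above the NP arrays. These were 1441445_at, at 4.72, 4.92 and 4.63 in LP muscle against 4.36, 4.27 and 4.52 in NP muscle, and 1458176_at, at 4.76, 4.97 and 5.19 in LP muscle against 4.69, 4.74 and 4.16 in NP muscle. Neither passed over all probe sets (limma adjusted p = 0.429 and 0.553). Per1 ranged between 8.82 and 9.60 in LP muscle and between 8.81 and 9.14 in NP muscle, and Per2 between 6.13 and 7.59 in LP muscle and between 7.0 and 7.51 in NP muscle. Both period genes overlapped between the diets, with differences of 0.38 (SE 0.34) and -0.14 (SE 0.32).

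Cry1 was 7.43, 7.57 and 7.28 in LP muscle, against 6.90, 7.32 and 7.10 in NP muscle, with overlap at a single pair of arrays (difference 0.32, SE 0.15, limma adjusted p = 0.496). Cry2 did not separate the diets, at 7.70 to 8.10 in LP muscle and 7.62 to 8.12 in NP muscle. Nr1d1, the repressor of Arntl, was 5.51, 6.86 and 6.79 in LP muscle, against 6.25, 6.22 and 5.80 in NP muscle. LP replicate 1 lay below all NP arrays and the other LP arrays above them. Nr1d2 was 8.87, 9.08 and 8.91 in LP muscle, against 9.39, 9.78 and 9.44 in NP muscle, without overlap (difference -0.58, SE 0.32, limma adjusted p = 0.591). Dbp, read in muscle through 1438211_s_at, was 6.80, 6.09 and 5.94 in LP muscle, against 5.12, 5.77 and 6.38 in NP muscle, and the groups overlapped (difference 0.52, SE 0.39, limma adjusted p = 0.734).

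No clock gene passed for taurine in muscle. LPtau against LP called 0 of 10, against 0.022% of all genes, and 0 of 10 were without overlap, against 16.1% of all genes. NPtau against NP called 0 of 10 and LPtau against NPtau called 0 of 10, each against 0% of all genes. LPtau against NP also called 0 of 10, against 0% of all genes, and 1 of 10 had an unadjusted p under 0.05, with 3.75% of all genes. That gene was Dbp, which was 7.53, 6.66 and 6.11 in LPtau muscle, against 5.12, 5.77 and 6.38 in NP muscle. The lowest LPtau array of Dbp lay within the NP range (difference 1.01, SE 0.39, limma adjusted p = 0.840). The muscle interaction called 0 of 10, against 0% of all genes, and 0 of 10 had an unadjusted p under 0.05, with 6.56% of all genes.

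In muscle none of the lists around the clock held a gene that passed for LP against NP. Among 18 genes known as clock controlled in adult muscle, 9 had an unadjusted p under 0.05, against 10.8% of all genes, and the median difference was -0.66, beside -0.01 over all genes. Pdk4, a kinase that restrains glucose oxidation, had a difference of -3.02 (limma adjusted p = 0.0930). Tcap, a Z-disc protein gene, was 9.89, 9.87 and 9.34 in LP muscle, against 10.98, 10.80 and 10.69 in NP muscle (limma adjusted p = 0.107). Each LP array of Tcap was below each NP array. The markers of skeletal muscle itself were lower as well. Of 12 of them 0 had a positive difference, against 47.6% of all genes, and 3 had an unadjusted p under 0.05, against 10.8% of all genes. Of these 12 markers 0 passed, against 0.126% of all genes, and their median was -0.28. Their mean was -0.70, -0.15 and -0.19 relative to NP in the LP muscle arrays, -0.42 to 0.04 in LPtau, -0.54 to 0.04 in NPtau and -0.04 to 0.03 in NP. Markers of other tissue also varied in these arrays. The mean of 6 cartilage markers was -0.99, 2.96 and 3.22 relative to NP in the LP muscle arrays, 1.75 to 2.27 in LPtau, -0.64 to 1.12 in NPtau and -1.03 to 0.66 in NP. The mean of 10 hepatocyte markers was 0.10 to 1.88 in LP, -0.34 to 1.07 in LPtau, 0.55 to 1.03 in NPtau and -0.20 to 0.22 in NP. The part of these 3 lists in the muscle values of the clock genes and of the clock controlled genes was not tested.

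Whether the tissues shifted alike was tested in a fit of all 24 arrays. Of the clock genes, Per3 alone passed the test of a different effect of low protein in liver and muscle. The test passed 1 of 10, against 1.97% of all genes. The difference between LP and NP for Per3 was 0.68 in liver and -0.04 in muscle, that is 0.72 higher in liver (SE 0.15, 95% interval 0.40 to 1.05, limma adjusted p = 0.0192). The probe set had a mean level of 5.59 in liver and 5.23 in muscle, above that of 39.6% and 39.9% of genes. The other Per3 probe sets had mean muscle levels of 3.61 to 4.65, under the muscle array medians of 4.95 to 5.04. Whether a shift in muscle would show at such low levels was not tested. With liver and muscle of the same diet and number as a block the adjusted p was 0.0431, and 1.35% of all genes passed. With the mean of the 6 probe sets in place of 1421087_at the difference between the tissues was 0.56 and the adjusted p 0.0697. Without liver NP replicate 1, liver LP replicate 3, muscle NP replicate 3 or muscle LP replicate 3 the adjusted p was 0.0529 to 0.0613.

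**Figure D4:**
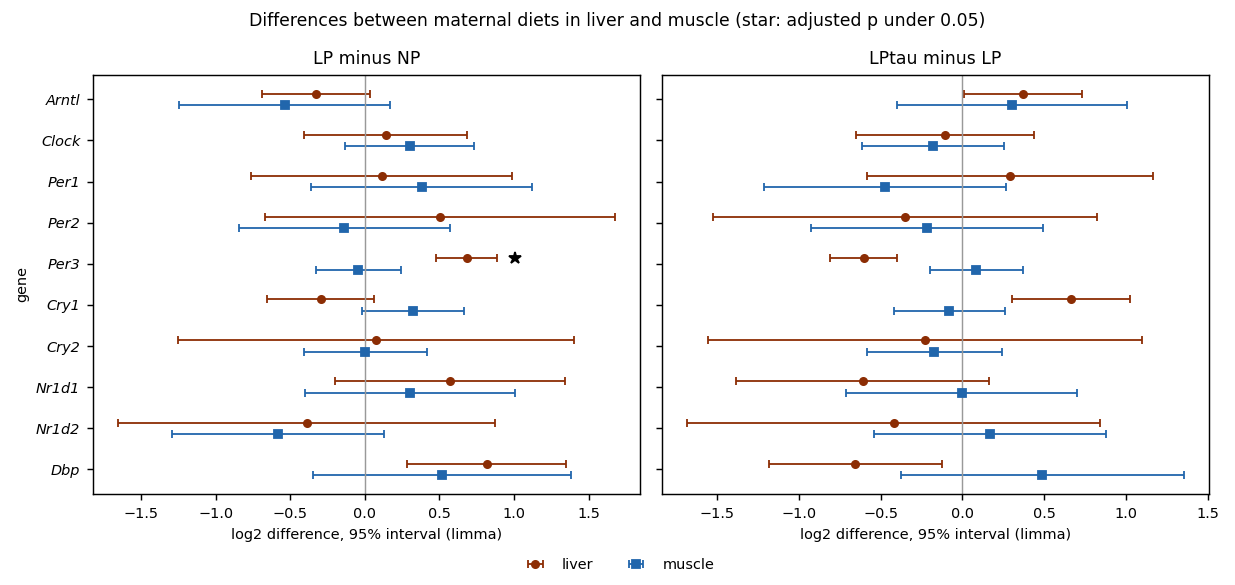
Log2 difference with its 95% interval from limma (horizontal axes) for each clock gene (vertical axis) in liver (circles) and muscle (squares), for LP minus NP on the left and LPtau minus LP on the right. Dbp is drawn from 1418174_at in liver and from 1438211_s_at in muscle, so its values come from different probe sets. Per3 in liver, at 0.68 for LP minus NP, carries the star that marks an adjusted p under 0.05, and its muscle value of -0.04 lies outside its interval.

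Of the 10 clock genes 7 had the same sign of LP minus NP in both tissues, against 48.3% of all genes. Per2, Per3 and Cry1 had opposite signs. The 7 include Cry2, whose differences were 0.08 in liver and 0.003 in muscle. They also include Arntl and Nr1d2, whose 2 probe sets each differed in sign, for Arntl in muscle and for Nr1d2 in liver. With the sex call as a covariate the liver difference of Nr1d2 was 0.03, so the count depends on these choices. Cry1 had a difference of -0.30 in liver and 0.32 in muscle, with a liver minus muscle value of -0.62 (SE 0.23, 95% interval -1.10 to -0.14, limma adjusted p = 0.169). Arntl had differences of -0.33 in liver and -0.54 in muscle, and the tissues differed by 0.21 with an interval of -0.58 to 1.00. Nr1d1 had differences of 0.57 in liver and 0.30 in muscle, with an interval of -0.78 to 1.32 for the difference between the tissues. Intervals of this width do not show that the tissues shifted alike. For LPtau against LP the tissue test passed 0 of 10, against 0.258% of all genes, and 5 of 10 had the same sign, against 42% of all genes. Per3 came nearest, at -0.69 (SE 0.15, limma adjusted p = 0.0641), followed by Cry1, at 0.74 (SE 0.23, limma adjusted p = 0.175). For NPtau against NP it passed 0 of 10, against 0% of all genes, and 0 of 10 had an unadjusted p under 0.05, with 1.17% of all genes.

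Liver and muscle arrays that share a diet and a number had matching sex calls in 12 of 12 pairs. Their clock gene levels were not tied detectably: the correlation of deviations from the diet means over 12 pairs was -0.66 for Per2 to 0.52 for Per3, and 0 of 10 passed (smallest Benjamini-Hochberg adjusted p 0.872, exact permutation within diets). Whether such a pair comes from 1 pup is not given in the labels.

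Several clock genes, read through the probe set used for each, varied widely between arrays of the same diet. The residual SD of Cry2 in liver was 0.86, larger than that of 99.4% of genes, and those of Nr1d2 (0.82), Per2 (0.76), Per1 (0.56) and Nr1d1 (0.50) were larger than those of 99.3%, 99.0%, 96.9% and 95% of genes. The spread depended on the probe set. For Per2 it was 0.76 in 1417602_at and 0.27 and 0.12 in the other probe sets, and for Nr1d2 it was 0.82 in 1416958_at and 0.34 in 1416959_at. Per1, Cry2 and Nr1d1 had a single probe set each. Per3 varied little. Its liver residual SD was 0.079, larger than that of only 3.52% of genes. Arntl and Cry1, both at 0.21, lay near the middle. In muscle Dbp was the most variable member, with a residual SD of 0.55, larger than that of 95.1% of genes, and Per3 again the least, with 0.14. Cry2 was near the middle in muscle, at 0.24, larger than 56.6% of genes.

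In liver 2 of 45 pairs of members passed a test of shared variation, and in muscle 1 of 45. Per1 and Cry2 varied together over the 12 liver arrays after the diet means were removed (Pearson r = 0.96, Spearman rho = 0.97, Benjamini-Hochberg adjusted p = 0.0347 for each over 45 pairs, exact permutation within diets). Without the 2 arrays farthest from the median of Per1 the r was 0.96. Per2 and Cry2 ran in opposite directions (r = -0.91, rho = -0.94, adjusted p = 0.0347 for each, exact permutation). Without the 2 farthest arrays that r was -0.90. This rests on 1 probe set of Per2, 1417602_at, since the r with Cry2 was -0.46 for 1417603_at and -0.52 for 1457350_at (Benjamini-Hochberg adjusted p = 0.321 for each over 24 tests, exact permutation). Per1 and Per2, which the clock drives together in adult tissue, had r = -0.88, with an adjusted p of 0.188 by the exact permutation test. In muscle the same pairs had r = -0.26 for Per1 and Cry2, 0.50 for Per2 and Cry2 and 0.43 for Per1 and Per2, and 0 of these 3 passed. The single muscle pair that passed was Clock and Nr1d2 (r = 0.66, rho = 0.81, adjusted p = 0.0347, exact permutation), with r = 0.52 without the 2 farthest arrays. Over the other 7 combinations of their probe sets r was -0.53 to 0.58 and none passed (exact permutation). For the probe sets used, its r was 0.95 over the 6 arrays called female and 0.58 over the 6 called male. In liver Clock and Nr1d2 ran in opposite directions, with r of -0.88 to -0.26 over the combinations of their probe sets. There 1416959_at of Nr1d2 passed with 1418660_at (r = -0.88, adjusted p = 0.0222) and 1435775_at of Clock (r = -0.85, adjusted p = 0.00926, exact permutation, over 24 tests). The probe sets used in liver had r = -0.54 and did not pass.

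**Figure D5:**
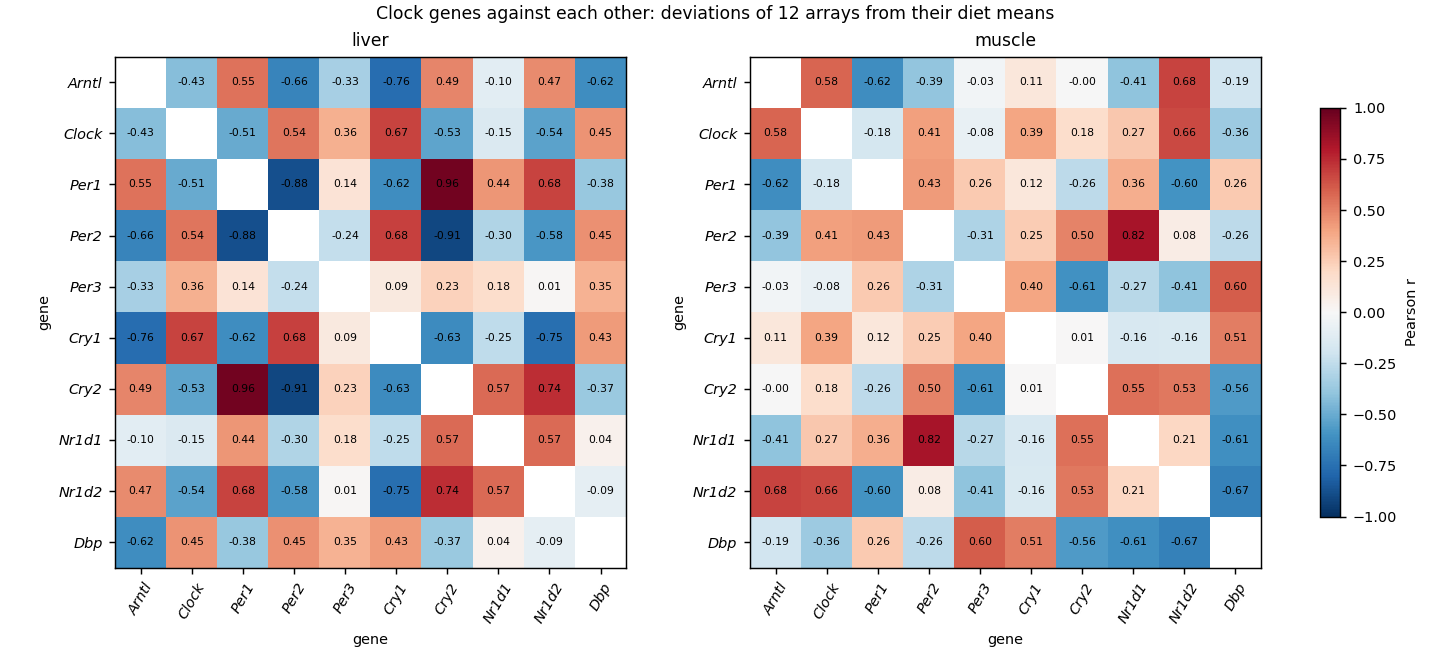
Pearson r (colour scale) between the 10 clock genes over the 12 liver arrays on the left and the 12 muscle arrays on the right, computed on deviations from diet means, with genes on both axes. In liver Per1 and Cry2 stand at 0.96 and Per2 and Cry2 at -0.91, and in muscle the same pairs stand at -0.26 and 0.50.

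The liver levels also differed between arrays called female and male within a diet. Nr1d2 was 7.55 to 9.39 in the 6 female liver arrays (median 8.34), against 9.25 to 10.11 in the 6 male arrays (median 9.61). In 4 of 4 diets each female array of Nr1d2 lay below each male array, with a mean difference of -1.27 (SE 0.21). Cry2 (-1.03, SE 0.34), Per1 (-0.68, SE 0.23) and Nr1d1 (-0.57, SE 0.21) were lower in females on average in 4 of 4 diets. None of the 10 passed over all genes, against 0.022% of all genes, and the limma adjusted p of Nr1d2 was 0.336. At an unadjusted p under 0.05 limma counted 5 of 10, with 8.26% of all genes. These were the 4 genes just named and Cry1, which went the other way. Cry1 (0.24, SE 0.10), Per2 (0.57, SE 0.38) and Clock (0.28, SE 0.17) were higher in females on average in 4 of 4 diets. Per3 had a sex difference of 0.02 (SE 0.07). In muscle 0 of 10 had an unadjusted p under 0.05, with 1.46% of all genes, and Nr1d2 had a difference of -0.02 (SE 0.25). These differences were computed after the values had been seen. On deviations from the diet means of both sexes, Per1 and Cry2 had r = 0.96 over the 6 female arrays and 0.92 over the 6 male arrays. Such deviations keep part of a sex difference, and those of females and males offset each other within a diet. The r of females and that of males are therefore not independent and cannot decide whether the link holds within a sex. By exact permutation of the 6 arrays p was 0.00972 and 0.0125 (Benjamini-Hochberg adjusted p = 0.025 for each over 8 tests). These permutations ran across diets and were not kept within them.

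The genes with the pattern most like that of 4 members were taken from those above the tissue's median level, by Pearson r of levels over 12 arrays. In liver they were Gnaq (0.93), Mast2 (0.90) and Pi4k2b (0.89) for Arntl, and Pcyt2 (0.94), Pik3ip1 (0.93) and Stx5a (0.93) for Per1. For Nr1d1 they were Aldh1a7, Sptssa and Slc46a3 (0.84 each), and for Dbp Prpf31 (0.90), Nsun5 (0.89) and Upk2 (0.88). In muscle they were Adam9 (0.94), Tcp11l2 (0.93) and Etfdh (0.92) for Arntl and Fbxo7 (0.85), Ppie (0.84) and 1700037H04Rik (0.85) for Per1. For Nr1d1 they were Tspan33 (0.90), Ksr1 (0.90) and Wdr74 (0.88), and for Dbp Gpr137 (0.89), Cyth1 (0.87) and Dck (0.87). None of these genes was shared between the tissues. With 9089 liver and 9087 muscle genes searched over 12 arrays, such values are a description and were not tested.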

How the data were processed

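The deposited values were log2 expression values per probe set of an Affymetrix mouse array, made by the authors from single-channel intensities of biotin-labelled RNA. Per the submitters' processing notes RMA and R 2.7.0 were used, and MAS5 is named without a role. Per the design text liver and muscle were normalized separately. Scanner files were not used here, and 0 value columns were left without a sample. Liver array medians were 5.35 to 5.39 and muscle medians 4.95 to 5.04. The number of arrays, 3 for each diet and tissue, limits the precision.

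Each of the 18193 genes was read through its brightest probe set, by the mean level over a tissue's 12 arrays (over 24 for differences between tissues), without a filter on low values. limma 3.58.1 (R 4.3.3) fitted 4 diet means to each tissue and 8 means to both together, with Benjamini-Hochberg adjustment over all genes of a contrast. With 3 arrays a group, the smallest two-sided p of an exact test is 0.1, and limma's calls use a spread pooled over genes. Permutation tests of correlations, two-sided, ran over all 1296 arrangements within diets, with a smallest p of 0.000772. The code was tested on simulated data. "Rose" and "fell" are used for genes that passed.

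All members are named, and from each further list the genes that passed or otherwise those with the largest difference. The members, gene lists and tests were chosen with earlier results of these data known. Alternatives changed the probe set rule, filter, normalization, spread model, array weights, covariates and arrays. Gene names came from the annotation of the platform and a RefSeq table of GRCm38.p6.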

Additional observations from a re-analysis of the deposited data

Results flagged for a closer look

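The effect of maternal low protein differed between liver and muscle for the following genes, by the liver minus muscle term of the limma fit of all 24 arrays, with p adjusted over all genes. Per3 had the value 0.72 (SE 0.15, adjusted p = 0.0192), with 0.68 in liver and -0.04 in muscle, and it lost the call in 5 of 20 alternatives. Its probe set lay below the median gene level in both tissues. Tef, the D-box factor, had 1.11 (SE 0.28, adjusted p = 0.0422), with 1.15 in liver and 0.04 in muscle, and it lost this call in 15 of 21 alternatives (adjusted p up to 0.108). With liver and muscle arrays of the same diet and number as a block, Per3 kept its call (adjusted p = 0.0431) and Tef did not (adjusted p = 0.0938).

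Among output and input genes of the clock, Alas1, the first enzyme of haem synthesis, had 1.85 (SE 0.46, adjusted p = 0.0414), with 1.09 in liver and -0.76 in muscle, where LP arrays were 8.28, 8.63 and 8.01 and NP arrays 8.95, 9.12 and 9.13. Tcap had 1.21 (SE 0.29, adjusted p = 0.0322), with 0.09 in liver and -1.12 in muscle. The metallothionein gene Mt1 had 1.48 (SE 0.34, adjusted p = 0.0307), with 0.22 in liver and -1.27 in muscle. The chaperone gene Hsp90aa1 had -0.98 (SE 0.21, adjusted p = 0.0229), with -0.60 in liver and 0.38 in muscle, where it was 11.47, 11.31 and 11.29 in LP arrays and 10.88, 10.98 and 11.08 in NP arrays. Under the alternatives the call of Alas1 was lost in 13 of 21, of Tcap in 10 of 21, of Mt1 in 8 of 21 and of Hsp90aa1 in 6 of 21. With the block by diet and number the adjusted p was 0.0799 for Alas1 and 0.0651 for Tcap, and Mt1 and Hsp90aa1 kept their calls.

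Among markers of other cell types, Rag1 had -1.87 (SE 0.34, adjusted p = 0.00764), with -2.01 in liver and -0.14 in muscle, and Cd79b had -1.62 (SE 0.38, adjusted p = 0.0317), with -1.55 in liver and 0.07 in muscle. For LPtau against LP the fibroblast gene Postn had a liver minus muscle value of 1.39 (SE 0.28, adjusted p = 0.0409), with 1.13 in liver and -0.26 in muscle. Rag1 kept its call in each alternative run, while Cd79b lost it in 10 of 20 and Postn in 10 of 21. With the block by diet and number the calls of Cd79b (adjusted p = 0.07) and Postn (adjusted p = 0.0802) were lost.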

How the results depend on the processing

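The count of clock genes called for LP against NP in liver, 1 in the main analysis, was 2 when each probe set was tested on its own (Per3 and Arntl), 0 among genes above the median level, since Per3 lay below it, 2 with array weights (Per3 and Dbp, with 4727 genes called in all against 425), and 0 to 1 when arrays were left out in turn. For LPtau against LP in liver, 0 in the main analysis, it was 2 with array weights (512 genes in all against 12) and 0 to 1 with arrays left out. For liver minus muscle, LP against NP, 1 in the main analysis, it was 0 with the mean of the probe sets, 0 among genes above the median, 2 with array weights (Per3 and Cry1) and 0 to 1 with arrays left out. For liver minus muscle, LPtau against LP, 0 in the main analysis, it was 2 with array weights and 0 to 1 with arrays left out. The cause of these moves was not tested, apart from the filter. In the other comparisons the count of clock genes was 0 under every alternative run.

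Over 150 values of members, 2500 alternative values were computed. Of these 2309 kept sign and side of the threshold, 7 lost a call, 9 gained one, 175 uncalled values changed sign or scale and 0 called values reversed. Per3 in liver, LP against NP, ran between 0.64 and 0.72, with adjusted p of 0.00117 to 0.0535. Nr1d2 there was 0.03 with the sex call as a covariate, against -0.39. Counts over all genes moved more: in liver, LP against NP, 425 genes became 244 with the sex call as a covariate and 21 to 2013 with an array left out, and in muscle, LP against NP, 23 became 65 with cyclic loess normalization, 789 with array weights and 2 to 126 with an array left out.

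The correlation of deviations of same-numbered arrays of different diets ranged between -0.20 and 0.42 in liver and between -0.47 and 0.39 in muscle. Arrays of other numbers were not compared across diets, so this check cannot decide whether a number marks a batch. Between liver and muscle of a diet the mean correlation was 0.09 for the same number, without Xist and Y-linked genes (0.003 to 0.19). For other numbers of a diet it was -0.04 (-0.27 to 0.14). With the replicate number as a block the liver count for LP against NP was 1 (403 genes in all) and the muscle count 0 (2 genes in all), and this pairing changed no call of a clock gene. It ended the call of Cd79b in liver and the liver minus muscle calls of Tef, Alas1 and Postn (adjusted p 0.0519 to 0.0609). The block by diet and number across tissues, the sex differences and the reading of each probe set's spread and correlations were added after seeing the data.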
